A study of Mus musculus with 16 samples.

Results

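The 39 genes described here encode proteins of the nucleolus and of ribosome biogenesis. They were chosen as a list of gene symbols. Each symbol was found once among the 53090 genes of the count tables. All 39 had enough counts to be tested in every comparison. They were followed in mouse CD4+ T cells of 4 groups with 4 RNA sequencing libraries each: WT Tn, Aim2-/- Tn, WT Treg and Aim2-/- Treg. Tn are naïve CD4+ T cells of the spleen, from which RNA was taken without culture. Treg are CD4+ T cells kept for 48 h with anti-CD3/CD28 antibodies, recombinant human TGF-beta and recombinant mouse IL-2. The Aim2-/- mice lack AIM2, a sensor of cytosolic DNA, in every cell of the body and not in T cells alone. The study selected naïve cells (CD44 low, CD62L high) with magnetic beads. Its culture comparison therefore joins receptor stimulation, 2 cytokines and time, whose effects cannot be told apart.

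In the nucleolus, RNA polymerase I copies the ribosomal DNA into a long precursor RNA. Small nucleolar ribonucleoproteins (snoRNPs) modify and guide this precursor, the small subunit processome folds and cuts it, and further factors assemble the large subunit before both subunits leave the nucleus. Resting T lymphocytes are small cells with modest nucleoli, and stimulation through the T cell receptor is known to enlarge the nucleolus and to raise ribosome production before the cells divide.

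The libraries held between 22516394 and 34533297 counts, so a count of 3 corresponded to 0.087 to 0.133 CPM (counts per 1000000 counts of the library), below the level of every one of the 39 genes. CPM here are counts scaled by TMM factors, which set libraries against each other by the bulk of their genes. Transcripts of the targeted Aim2 gene lay between 32.3 and 43.3 CPM in WT libraries and between 6.61 and 10.8 CPM in Aim2-/- libraries, with no overlap. The 6 CD4 T cell markers were present in all groups, with a median sum of 3894 CPM in WT Tn and 1805 CPM in WT Treg. The summed level of 7 naïve T cell markers had a median of 5254 CPM in WT Tn and 928 CPM in WT Treg. That of 5 induced Treg markers went from 61.2 to 2166 CPM. Most of it in WT Treg was Il2ra, which went from a mean of 3.46 CPM to 1451.5 CPM. Foxp3, Ikzf4 and Itgae were also called higher with culture in WT by edgeR's test. Ctla4 was not called, with overlapping groups and changes of 0.59 in WT and -0.08 in Aim2-/- cells on the log2 scale. Summed B cell markers lay between 423 and 574 CPM in Tn and between 121 and 169 CPM in Treg, nearly all of it Ighm, which had a mean of 475 CPM in WT Tn, 510 CPM in Aim2-/- Tn and 135 CPM in WT Treg. Cd79a lay between 0.614 and 0.909 CPM in WT Tn and between 1.13 and 1.73 CPM in Aim2-/- Tn, and Ms4a1, Cd79b and Pax5 had group means under 1 CPM throughout. Erythroid markers summed to 1.23 to 3.97 CPM in WT Tn, to 5.28 to 7.94 CPM in Aim2-/- Tn and to at most 0.203 CPM in either Treg group. Summed myeloid markers lay between 23.3 and 39.4 CPM in all groups, most of it Cst3, while Itgam changed by -2.51 on the log2 scale with culture in WT and Csf1r and Lyz2 had 0 counts in all WT Treg libraries. The median sum went from 10.5 to 3.6 CPM for CD8 T cell markers and from 8.24 to 0.542 CPM for NK cell markers with culture in WT. Apart from the myeloid sum, the summed levels of these lists moved with culture in both genotypes, as did the genes below, and their part in the results was not tested. WT Tn replicates 1 and 2 stood apart from replicates 3 and 4 over the whole of their genes, with chi-square per gene of 73.3 to 94.2 between the pairs and 13.5 and 11.5 within them, where all other pairs of libraries of a group had 10.3 to 62.9. Among the markers, Ccr7 was at 1381, 1564, 411 and 419 CPM and S1pr1 at 955, 888, 379 and 390 CPM in WT Tn replicates 1 to 4. Ctla4 was at 79.5, 80.0, 12.8 and 17.6 CPM in the same order. Medians and calls of the 39 genes that rest on WT Tn are therefore also given from replicates 1 and 2 alone and from replicates 3 and 4 alone of the groups compared. Role groups, lists of other genes and neighbouring genes are given from all 4 replicates only. In bulk RNA, fewer cells of a type and less RNA per cell cannot be told apart.

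The 250 bases before the transcription start are shown for 5 of the genes, since the whole list moved in 1 direction with culture and a reader may ask what letters these starts share. The genes were taken from the 13 whose RefSeq entry (GRCm38.p6) had a single start and no annotated exon in these bases. Dkc1 and Nop2 rose most with culture among them, Ppan and Nop10 rose least, and Nop2 and Rrn3 hold CACGTG, the E-box letters that MYC family proteins are known to bind. All 5 lie on the plus strand and are written 5′ to 3′, with capitals for CACGTG and for CCGGAAG, letters known from ETS family binding, on either strand.
Dkc1, chrX:75095604-75095853: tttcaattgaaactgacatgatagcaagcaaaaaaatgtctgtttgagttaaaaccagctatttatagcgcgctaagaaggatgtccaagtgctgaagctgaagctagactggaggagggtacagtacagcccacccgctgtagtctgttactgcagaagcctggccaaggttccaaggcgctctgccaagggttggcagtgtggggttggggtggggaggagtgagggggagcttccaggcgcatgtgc
Nop2, chr6:125131633-125131882: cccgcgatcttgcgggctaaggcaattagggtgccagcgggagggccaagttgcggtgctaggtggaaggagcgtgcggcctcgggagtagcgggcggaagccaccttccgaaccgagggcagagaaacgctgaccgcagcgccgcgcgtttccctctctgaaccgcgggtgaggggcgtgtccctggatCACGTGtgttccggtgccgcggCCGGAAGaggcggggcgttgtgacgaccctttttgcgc
Rrn3, chr16:13780449-13780698: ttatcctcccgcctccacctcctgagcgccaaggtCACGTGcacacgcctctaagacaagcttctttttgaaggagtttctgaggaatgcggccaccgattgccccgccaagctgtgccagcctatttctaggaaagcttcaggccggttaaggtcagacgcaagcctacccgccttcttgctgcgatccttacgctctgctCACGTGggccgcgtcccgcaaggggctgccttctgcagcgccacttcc
Ppan, chr9:20887925-20888174: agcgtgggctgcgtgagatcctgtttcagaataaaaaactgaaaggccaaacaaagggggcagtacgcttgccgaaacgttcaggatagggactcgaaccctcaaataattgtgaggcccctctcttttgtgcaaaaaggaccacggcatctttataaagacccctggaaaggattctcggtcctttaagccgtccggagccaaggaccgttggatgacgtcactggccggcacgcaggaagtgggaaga
Nop10, chr2:112261676-112261925: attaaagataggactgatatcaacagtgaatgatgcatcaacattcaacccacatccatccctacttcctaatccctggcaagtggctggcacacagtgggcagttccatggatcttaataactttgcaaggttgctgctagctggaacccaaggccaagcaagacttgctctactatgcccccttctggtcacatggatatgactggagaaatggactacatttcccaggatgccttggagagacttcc
In Nop2, CACGTG begins 60 bases and CCGGAAG 38 bases before the start. In Rrn3, CACGTG occurs 2 times, 215 and 48 bases before the start. The GC content of the printed stretches ran from 47.2% for Nop10 to 67.6% for Nop2.

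RefSeq windows of 300 bases, of which 50 follow the start, were at hand for 33 of the 39 genes. Fbl, Npm1, Tcof1, Rrp12, Bop1 and Rrs1 were not matched. CACGTG, which reads the same on both strands, was found for 7 of the 33 (21.2%), namely Rrn3, Mybbp1a, Utp18, Utp20, Wdr43, Pes1 and Nop2. It was found for 19.8% of 86 other ribosome biogenesis genes, for 12.1% of the 9484 genes tested that have a window, and for 8.09% of all 27025 genes with one. The median culture change of the 7 genes with CACGTG was 1.39 on the log2 scale, and that of the 26 without it was 1.45. These letters therefore did not part the genes that rose more from those that rose less. CCGGAAG, searched on both strands, was found for 33.3% of the 33, against 45.3% of the other biogenesis genes, 21.2% of the genes tested and 9.93% of all. GGGCGG, the letters of a GC box, was found for 75.8%, against 65.1%, 68.3% and 38.2% in the same order. TATAAA was found for 9.09%, against 4.65%, 8.17% and 15.7%, and ATGGCGG for 9.09%, against 16.3%, 9.81% and 4.69%. None of the 5 letter strings contains another, and a match describes letters and not a binding site.

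To ask how the nucleolar genes behaved while naïve cells were cultured in Treg conditions, WT Treg were compared with WT Tn. All 39 rose, and for all 39 every WT Treg library lay above every WT Tn library. Together they made up 0.556% ± 0.0437 (SD, n = 4) of the normalised counts in WT Tn and 1.61% ± 0.0681 in WT Treg. The median change was 1.38 on the log2 scale, or 2.61-fold, and single genes ran from 1.30-fold for Polr1c to 6.21-fold for Noc4l. In edgeR's quasi-likelihood test the 39 p-values, adjusted by Benjamini and Hochberg's method over all genes, lay between 6.6e-09 and 0.005. All 39 were also called higher in replicates 1 and 2 alone, with a median of 1.37, and in replicates 3 and 4 alone, with a median of 1.32. Among all 13675 genes tested, 37.7% were called higher and 37.2% had WT Treg libraries entirely above WT Tn libraries, while the median gene changed by -0.05. Values are relative to the other RNAs in a library, and RNA per cell was not measured.

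The same comparison in Aim2-/- cells also had all 39 genes higher in Treg, with no overlap between groups. Their summed share went from 0.558% ± 0.0117 (SD, n = 4) to 1.67% ± 0.0866. The median change was 1.46 on the log2 scale (2.75-fold), from 1.32-fold for Polr1c to 6.08-fold for Noc4l, and adjusted p-values by the same test lay between 5.3e-10 and 0.0011. Of 13713 genes tested there, 39.1% were called higher and 37.3% were higher without overlap.

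**Figure D1:**
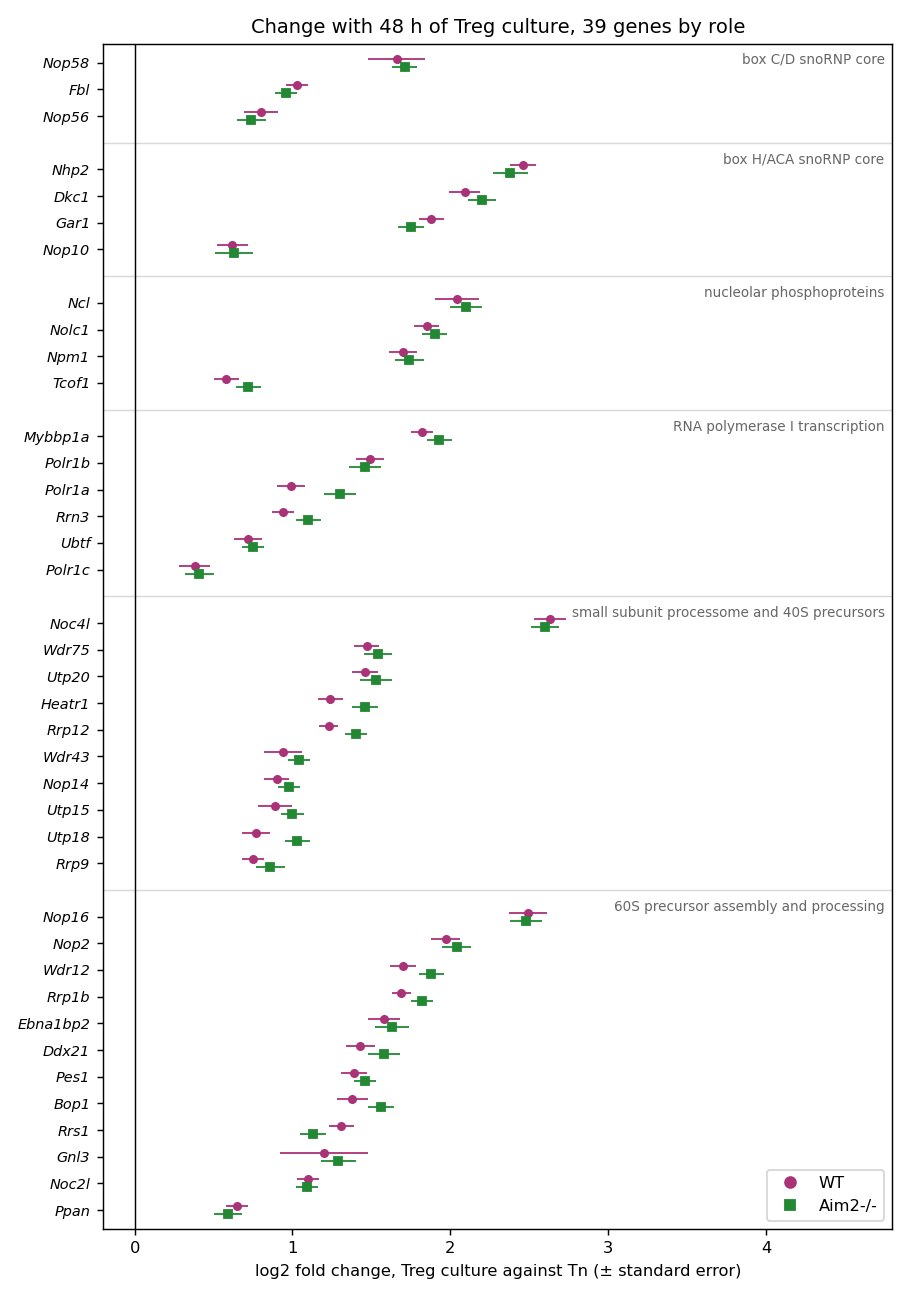
Log2 fold change of Treg against Tn for each of the 39 genes, in WT (circles) and Aim2-/- cells (squares), with bars of 1 standard error from edgeR, ordered within 6 role groups. Every point lies to the right of 0, between 0.38 and 2.63 in WT, and Noc4l, Nop16 and Nhp2 lie farthest right.

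The box H/ACA snoRNP proteins, which carry out pseudouridylation of ribosomal RNA and also bind telomerase RNA, had the highest group median in WT, 1.98 on the log2 scale over 4 genes. Nhp2 (ENSMUSG00000001056.3, chr11:51619735-51623714) encodes one of its core proteins and had the highest level per kilobase of exon in this group. Its level in WT Tn replicates 1 to 4 was 26.4, 29.7, 29.0 and 30.8 CPM, against 170, 170, 146 and 167 CPM in WT Treg. Aim2-/- Tn had 31.8, 27.9, 40.1 and 34.1 CPM, and Aim2-/- Treg had 164, 176, 173 and 189 CPM. Replicate 3 was the low library of WT Treg, yet it lay far above every Tn library. The rise was 5.51-fold in WT (log2 2.46 ± 0.08 SE) and 5.21-fold in Aim2-/- cells, with adjusted p of 6.6e-09 and 4.2e-09 by edgeR's test. Dkc1, the pseudouridine synthase itself, rose by 2.09 and Gar1 by 1.88 in WT on the log2 scale. Nop10 (ENSMUSG00000027133.3, chr2:112261926-112263269), the smallest protein of the same particle, stood apart. It measured 43.0, 36.2, 50.8 and 46.9 CPM in WT Tn and 65.4, 70.4, 70.0 and 71.7 CPM in WT Treg, a rise of 1.53-fold (log2 0.62 ± 0.10, adjusted p = 0.00033 in edgeR). Nop10 in Aim2-/- cells measured 40.9, 41.1, 57.0 and 49.5 CPM in Tn and 65.7, 70.3, 77.9 and 80.2 CPM in Treg, a rise of 1.55-fold. Genes of a single particle thus differed in the size of their rise.

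Among the box C/D snoRNP proteins, which guide methylation of ribosomal RNA, Nop58 rose by 1.66, the methyltransferase Fbl by 1.03 and Nop56 by 0.80 in WT on the log2 scale. Nop56 (ENSMUSG00000027405.16, chr2:130274430-130279313) had the highest level per kilobase of the 3. It was at 364, 391, 261 and 335 CPM in WT Tn replicates 1 to 4 and at 586, 625, 579 and 616 CPM in WT Treg. The corresponding Aim2-/- values were 358, 391, 340 and 383 CPM in Tn and 556, 583, 639 and 692 CPM in Treg. The groups did not overlap, and replicate 3 was the low library of WT Tn. The rise was 1.74-fold in WT (adjusted p = 0.00011) and 1.67-fold in Aim2-/- cells (adjusted p = 1.3e-05, edgeR). Counts of Fbl and Nop56 were not whole numbers in any of the 16 libraries, which shows that reads shared with other genes were divided by estimation, so their levels are less certain.

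The 4 nucleolar phosphoproteins had a median change of 1.77 in WT on the log2 scale. Npm1 (ENSMUSG00000057113.13, chr11:33152287-33163206), a histone and ribosomal protein chaperone, was the most abundant of all 39 genes per length, at a mean of 782 CPM per kilobase over the 16 libraries. Its level was 1087, 1001, 869 and 816 CPM in WT Tn and 3065, 3154, 3014 and 3284 CPM in WT Treg. Aim2-/- libraries had 1005, 878, 1052 and 968 CPM in Tn and 3062, 3261, 3136 and 3673 CPM in Treg. The lowest Treg library lay far above the highest Tn library in both genotypes. The rise was 3.25-fold in WT and 3.34-fold in Aim2-/- cells, with adjusted p of 1.3e-07 and 1.3e-08 by edgeR's test. Npm1 counts were estimated and not whole in all 16 libraries. Ncl, which encodes nucleolin, an RNA-binding protein of the dense nucleolus, rose by 2.04 ± 0.14 (SE) on the log2 scale. Npm1 and Ncl together made up 29.5% to 35.6% of the counts of the 39 genes in WT Tn and 41.7% to 42.3% in WT Treg, so these 2 genes carried a larger part of the sum after culture. Nolc1, which shuttles snoRNPs, rose by 1.85. Tcof1, which encodes treacle, a partner of RNA polymerase I, rose least of the 4. It was at 226, 247, 281 and 277 CPM in WT Tn and at 385, 394, 385 and 414 CPM in WT Treg, a rise of 1.5-fold (adjusted p = 8.3e-05, edgeR). Tcof1 in Aim2-/- cells was at 262, 245, 233 and 235 CPM in Tn and at 375, 413, 421 and 410 CPM in Treg, a rise of 1.65-fold. Neither genotype had overlapping groups.

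The 6 genes of RNA polymerase I transcription spread widely, with a median of 0.97 in WT on the log2 scale. Mybbp1a (ENSMUSG00000040463.16, chr11:72441355-72451768), a nucleolar regulator of ribosomal gene transcription, had the highest level per kilobase and the largest rise of the 6. It lay at 256, 278, 272 and 260 CPM in WT Tn and at 992, 1022, 888 and 936 CPM in WT Treg. The Aim2-/- values were 267, 262, 257 and 248 CPM in Tn and 977, 1078, 924 and 1000 CPM in Treg. Tn libraries were close together in both genotypes, and the rise of 3.52-fold in WT and 3.82-fold in Aim2-/- cells exceeded all spread between replicates (adjusted p = 1.1e-08 and 1.8e-09, edgeR). Of the polymerase subunits, the second largest, Polr1b, rose by 1.49, the largest, Polr1a, by 0.99 and Polr1c by 0.38 on the log2 scale. Polr1c (ENSMUSG00000067148.15, chr17:46243920-46248054) belongs to both RNA polymerases I and III and had the smallest rise of all 39. Its level was 58.1, 60.7, 47.5 and 47.4 CPM in WT Tn and 72.5, 70.3, 67.9 and 74.3 CPM in WT Treg. Aim2-/- cells had 57.3, 48.8, 61.3 and 54.8 CPM in Tn and 67.8, 74.9, 75.9 and 77.6 CPM in Treg. The groups did not overlap, although the highest Tn library came close to the lowest Treg library in both genotypes. The change was 1.30-fold in WT (95% interval 0.16 to 0.60 on the log2 scale, adjusted p = 0.005) and 1.32-fold in Aim2-/- cells (adjusted p = 0.0011), both from edgeR. Rrn3, the initiation factor that links the polymerase to the ribosomal promoter, rose by 0.94, and Ubtf, which binds ribosomal DNA, by 0.72.

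**Figure D2:**
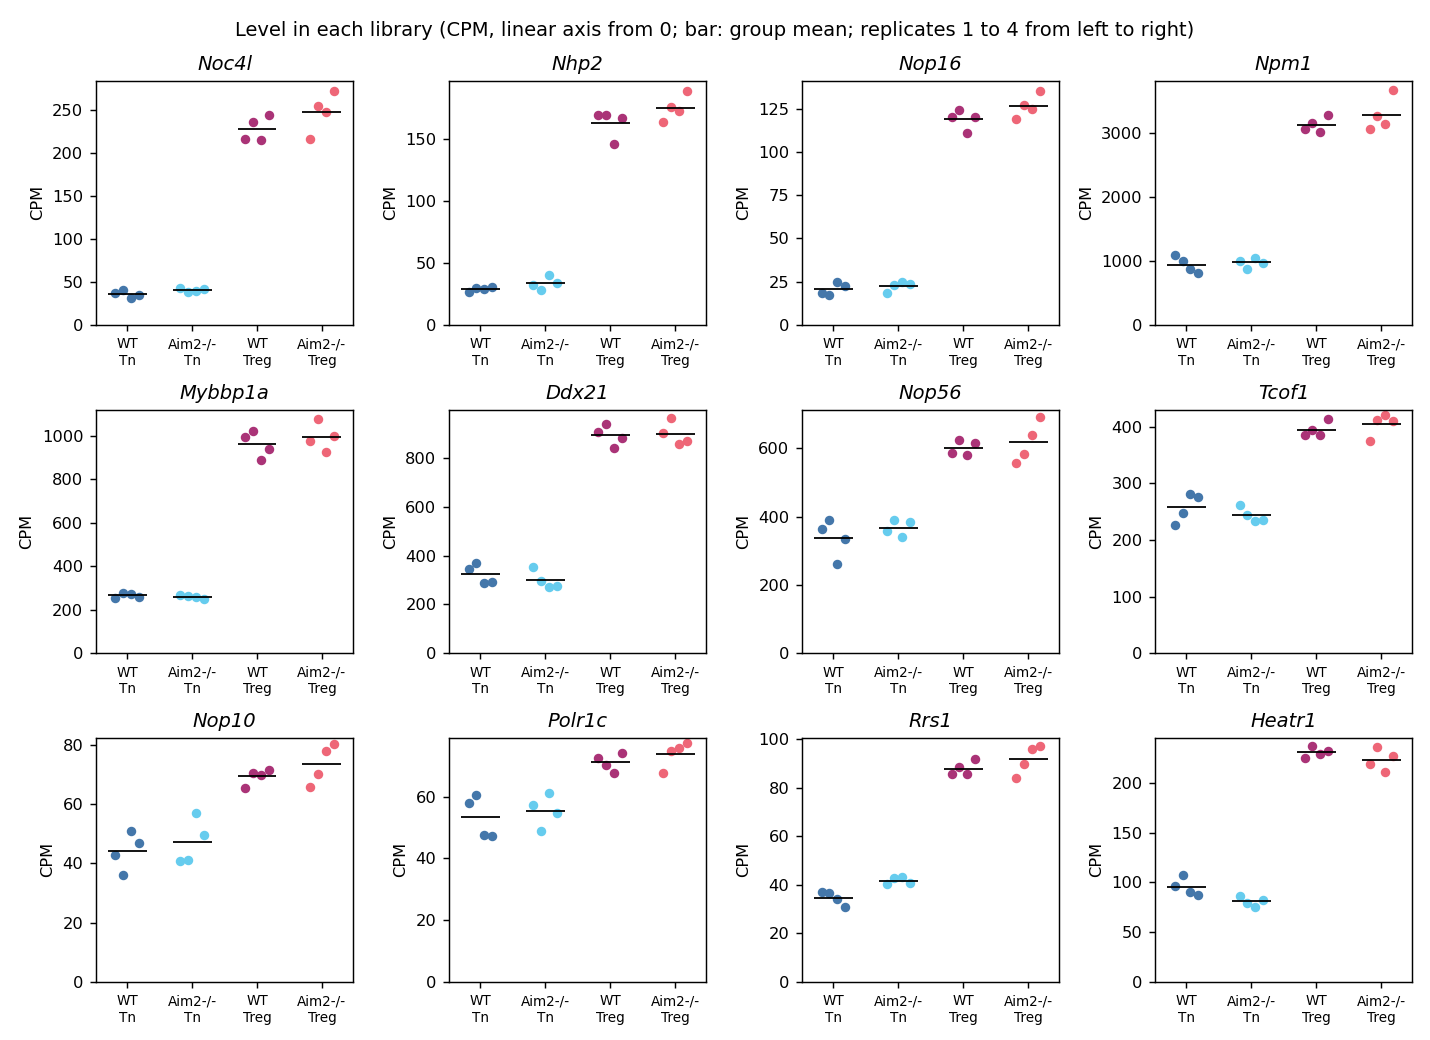
Level in CPM (linear axis from 0) of 12 of the genes in each of the 16 libraries, with replicates 1 to 4 from left to right in each group and a bar at the group mean. Noc4l, Nhp2 and Nop16 show the widest gap between Tn and Treg, Polr1c, Nop10 and Tcof1 the narrowest, and genotypes lie side by side in each state.

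Noc4l (ENSMUSG00000033294.11, chr5:110648418-110653417), needed for maturation of the small subunit, led the 10 genes of the small subunit processome and its later precursors. It measured 37.5, 40.8, 30.9 and 34.5 CPM in WT Tn and 217, 236, 215 and 244 CPM in WT Treg. For Aim2-/- cells the levels were 43.4, 38.2, 39 and 41.3 CPM in Tn and 216, 255, 248 and 272 CPM in Treg. This was the largest rise of the 39 in both genotypes, at 6.21-fold (log2 2.63 ± 0.10 SE) and 6.08-fold, with adjusted p of 1.4e-08 and 5.3e-10 by edgeR's test. The group median was 1.09 in WT and 1.22 in Aim2-/- cells on the log2 scale. Wdr75 (1.47), Utp20 (1.46), Heatr1 (1.24) and Rrp12 (1.23) followed in WT, and Wdr43 (0.94), Nop14 (0.90), Utp15 (0.89), Utp18 (0.77) and Rrp9 (0.75) rose by less than 2-fold. Rrp9 is a protein of the U3 particle that guides the first cuts.

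The 12 genes of large subunit assembly had a median of 1.41 in WT and 1.57 in Aim2-/- cells on the log2 scale. Nop16 (ENSMUSG00000025869.11, chr13:54584185-54590090), a nucleolar protein of large subunit precursors, was at 18.1, 17.1, 25.0 and 22.6 CPM in WT Tn and at 120, 124, 111 and 120 CPM in WT Treg. Levels in Aim2-/- cells were 18.3, 23.1, 25.0 and 23.3 CPM in Tn and 119, 127, 125 and 135 CPM in Treg. The rise was 5.62-fold and 5.60-fold, with adjusted p of 8.1e-08 and 1.8e-09 in edgeR. Ddx21 (ENSMUSG00000020075.8, chr10:62580251-62602281), an RNA helicase that links polymerase I transcription to RNA processing, had the highest level per kilobase of the group. It lay at 346, 369, 289 and 293 CPM in WT Tn and at 906, 941, 842 and 880 CPM in WT Treg, and at 352, 298, 273 and 275 CPM and 904, 964, 859 and 871 CPM in the corresponding Aim2-/- libraries. The change was 2.69-fold in WT and 2.98-fold in Aim2-/- cells (adjusted p = 4.3e-07 and 5.3e-08, edgeR). The RNA methyltransferase Nop2 rose by 1.97 in WT. Pes1, Bop1 and Wdr12, which form the PeBoW complex, rose by 1.39, 1.38 and 1.70 on the log2 scale. Rrp1b (1.69), Ebna1bp2 (1.58), Rrs1 (1.31), Gnl3 (1.2) and Noc2l (1.10) lay between, and Ppan, a factor of large subunit precursors, rose least, by 0.65. Counts were not whole in all 16 libraries for Pes1 and Ppan, in 15 for Heatr1 and Noc2l, in 12 for Polr1a and Nop14 and in 8 for Wdr12, so these levels rest in part on estimation.

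The other genes of the pathway were looked at through a list of 101 symbols, of which 100 were found, with Riok2 not analysed here. In WT, 79 of the 100 were called higher with culture, 6 lower and 15 neither, where 37.7% of all genes tested were called higher and 39.2% lower, and their median change was 0.79 on the log2 scale. In Aim2-/- cells 84 were called higher and 6 lower, against 39.1% and 40.2% of all genes, with a median of 0.77. Of 43 other genes of the processome and small subunit assembly, 34 were called higher and 2 lower in WT. Nol10 (log2 2.01) and Pno1 (1.81) rose most, and Abt1 (-0.45, adjusted p = 0.032) and Ngdn (-0.28, adjusted p = 0.026) fell by edgeR's test. The lowest estimate of this list in WT, -0.70, belonged to a gene that was not called. In Aim2-/- cells 36 of the 43 were called higher and 3 lower. Of 38 other large subunit assembly genes, 33 were called higher and 2 lower in WT. Rpf2 (1.86) and Mrto4 (1.83) lay at one end and Nsa2 (-0.62) and Ddx55 (-0.21) at the other. All 10 RNA exosome genes, which trim ribosomal RNA precursors, had estimates above 0 in WT, and 9 were called higher. Exosc9 (1.65) and Exosc2 (1.37) were highest and Exosc5 (0.29) lowest of those called. The 9 other genes of RNA polymerase I and its selectivity factor SL1 had a median of -0.08. There, Polr1g (1.72) and Polr1e (0.73) rose, and the SL1 subunits Taf1c (-0.64, adjusted p = 0.0013) and Taf1b (-0.21, adjusted p = 0.027, edgeR) fell.

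The protein components of the finished cytosolic ribosome moved the other way. Of 78 such genes, a list added after the results were known, 61 were called lower and 5 higher in WT with culture, where 39.2% of all genes tested were called lower, and their median change was -0.56 on the log2 scale. In Aim2-/- cells 60 were called lower and 1 higher, against 40.2% lower among all genes tested, with a median of -0.62. The extremes in WT were Rps27 (-2.0) and Rps2 (0.68). The median of the 39 biogenesis genes thus lay at 1.38 where that of the ribosomal proteins lay at -0.56. This is a contrast of shares of the RNA in a library.

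**Figure D3:**
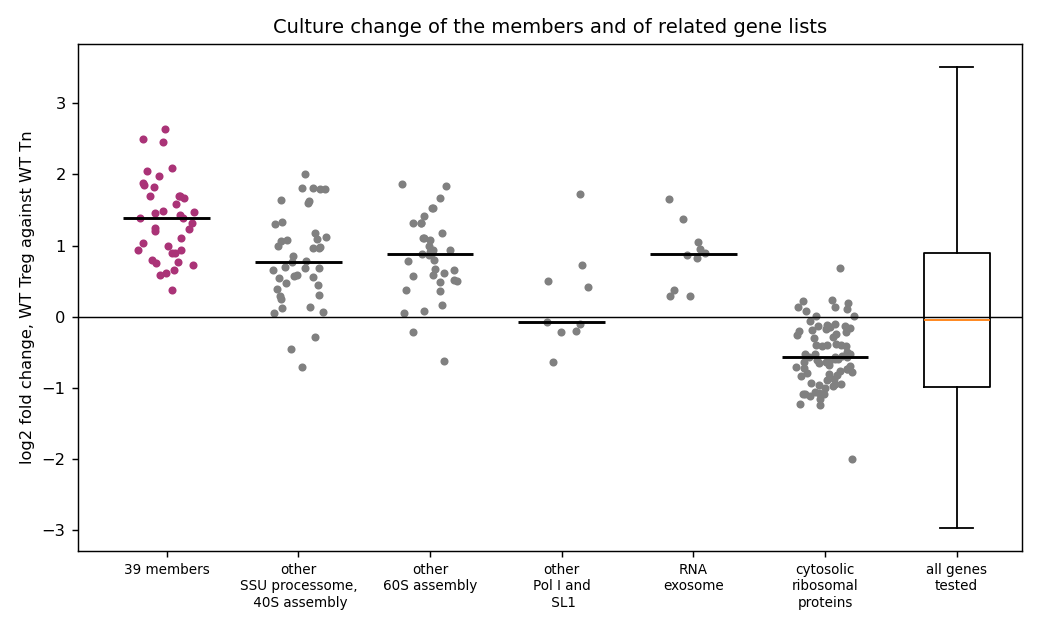
Log2 fold change of WT Treg against WT Tn for the 39 genes, 4 lists of other pathway genes, 78 cytosolic ribosomal protein genes (points, with a bar at the median) and all 13675 genes tested (box from the 25th to the 75th percentile, whiskers from the 5th to the 95th). The 39 genes lie above 0 throughout, with a median of 1.38, and most ribosomal protein genes lie under 0.

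Next it was asked whether Aim2 deficiency changed these genes within a state. Between Aim2-/- Tn and WT Tn, none of the 39 was called by edgeR's quasi-likelihood test, where 0.231% of 13441 genes were called, and DESeq2 also called 0. The median change was 0.02 on the log2 scale, with 20 genes higher and 19 lower, and estimates ran from -0.24 to 0.27. An unadjusted p under 0.05 was reached by 3 genes, a share below the 10.3% of all genes tested. Groups did not overlap for 4 genes, Rrs1, Gar1 and Fbl above WT and Heatr1 below, against 6.95% of all genes.

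The 4 genes with the smallest p in Tn are given in full. Rrs1 (ENSMUSG00000061024.8, chr1:9545408-9547455), an assembly factor of the large subunit, was at 37.2, 36.4, 34.2 and 30.8 CPM in WT Tn and at 40.1, 42.7, 43.2 and 40.8 CPM in Aim2-/- Tn. The groups did not overlap, with a change of 1.21-fold (log2 0.27 ± 0.09 SE, 95% interval 0.08 to 0.46, adjusted p = 0.39, edgeR). Heatr1 (ENSMUSG00000050244.9, chr13:12395027-12440289), a processome protein also needed for polymerase I transcription, was at 96.7, 107, 90.7 and 87.7 CPM in WT Tn and at 86.7, 79.2, 74.9 and 82.1 CPM in Aim2-/- Tn. Its change was -0.24 on the log2 scale (95% interval -0.43 to -0.04, adjusted p = 0.43, edgeR), and the nearest libraries of the groups almost touched. Gar1 (ENSMUSG00000028010.16, chr3:129824912-129831396) lay at 21.9, 20, 22.8 and 23.9 CPM in WT Tn and at 24.8, 24.7, 28.5 and 26.7 CPM in Aim2-/- Tn, a difference of 0.25 on the log2 scale (adjusted p = 0.43). Polr1a (ENSMUSG00000049553.11, chr6:71909053-71984935) was at 89.0, 107, 107 and 113 CPM in WT Tn and at 90.1, 97.9, 72.5 and 89.4 CPM in Aim2-/- Tn, groups that overlap, with a difference of -0.24 and an adjusted p of 0.49. None of these differences passed the adjustment. In replicates 1 and 2 alone the differences were 0.18 for Rrs1, -0.28 for Heatr1, 0.25 for Gar1 and -0.05 for Polr1a. In replicates 3 and 4 alone they were 0.36, -0.19, 0.23 and -0.45 in the same order, with Polr1a farther from 0 in the latter. None of the 39 was called in either pair, with a median of 0.00 and 0.03. An unadjusted p under 0.05 in edgeR's test was reached by 6 of the 39 in replicates 1 and 2, against 2063 of 12519 genes. In replicates 3 and 4 it was reached by 11, against 2919 of 12245 genes. Estimates ran from -0.40 to 0.27 in the first pair and from -0.45 to 0.58 in the second. Gnl3 lay below WT in replicates 1 and 2 (89.2 and 90.8 against 117 and 122 CPM). In replicates 3 and 4 it lay above WT (68.6 and 92.3 against 49.4 and 57.6 CPM). Over all 4 replicates, intervals of the 39 reached from -0.70 to 0.67 at their widest, both for Gnl3. Erythroid marker levels also differed between the Tn genotypes, as given above, and their part in these differences was not tested.

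Between Aim2-/- Treg and WT Treg the 39 genes were closer still. edgeR called 0 of them (0.219% of 13221 genes called), 0 had an unadjusted p under 0.05 (2.31% of all), 0 had groups without overlap (2.26% of all), and DESeq2 called 0. All adjusted p-values were 1. Estimates ran from -0.08 for Utp20 to 0.16 for Ebna1bp2, and the 95% intervals of all 39 lay between -0.28 and 0.38, so the widest difference they allow is 1.30-fold. Ebna1bp2 (ENSMUSG00000028729.15, chr4:118620799-118627776), a nucleolar protein of large subunit precursors, was at 162, 178, 159 and 194 CPM in WT Treg and at 163, 191, 200 and 221 CPM in Aim2-/- Treg. The groups overlapped. Noc4l differed by 0.12, Nhp2 by 0.10 and Nop16 by 0.08 on the log2 scale, each with libraries of the genotypes interleaved in the values given above.

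The sign of these small differences was shared. Estimates were above 0 for 37 of the 39 genes in Treg, with a median of 0.05, where 50.1% of all genes tested were above 0. The lean was not particular to the 39, since 92 of the 100 other pathway genes were also above 0 in Treg, with a median of 0.05. In Treg the 39 genes largely rose and fell together from library to library and were not independent. WT Treg replicate 3 had the lowest value of its group for 31 of the 39 genes, and Aim2-/- Treg replicate 4 had the highest of its group for 28. Without WT Treg replicate 3 the median was 0.02 and 31 genes were above 0, and without Aim2-/- Treg replicate 4 they were 0.03 and 29. In replicates 1 and 2 alone 21 genes were above 0, with a median of 0.01, and in replicates 3 and 4 alone 35, with a median of 0.09. Summed over the 39 genes, WT Treg libraries held 1.52% to 1.68% of the counts and Aim2-/- Treg libraries 1.59% to 1.77%, ranges that overlap.

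**Figure D4:**
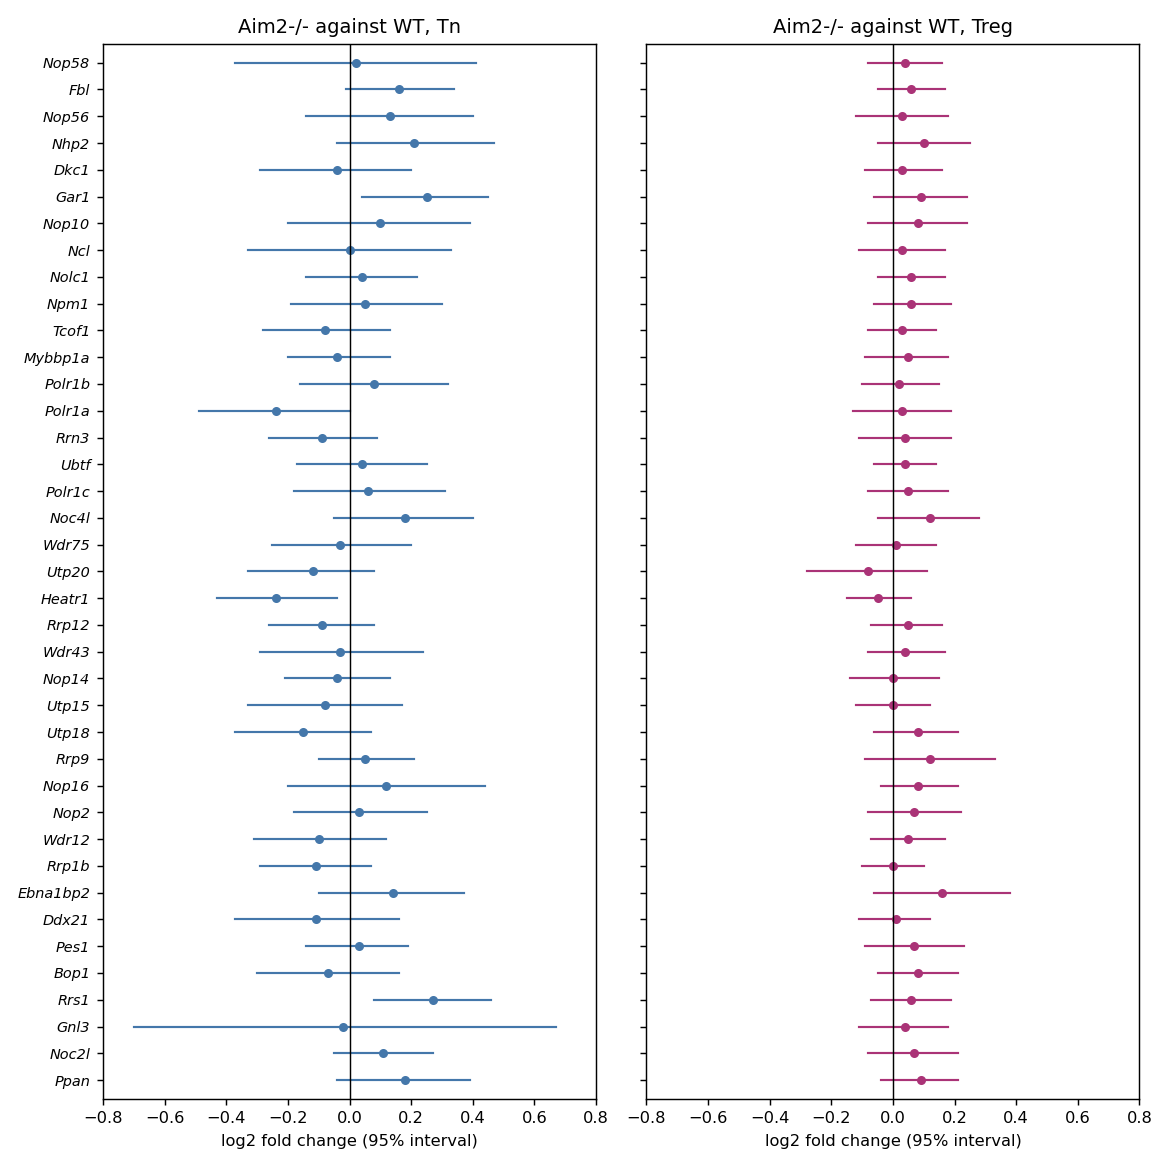
Log2 fold change of Aim2-/- against WT for the 39 genes in Tn (left) and Treg (right), as points with 95% intervals from edgeR. Estimates scatter on both sides of 0 in Tn, with Gnl3 the least certain, and lie between -0.08 and 0.16 in Treg with narrower intervals.

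Whether the culture response depended on genotype was tested as an interaction over all 16 libraries. edgeR called 0 of the 39 (0.0205% of 14669 genes called), and 0 had an unadjusted p under 0.05, against 3.49% of all genes. The smallest p belonged to Polr1a, whose rise was greater by 0.28 on the log2 scale in Aim2-/- cells in this fit (95% interval -0.01 to 0.57, adjusted p = 1, edgeR). The median interaction was 0.05, and it was -0.02 in replicates 1 and 2 alone and 0.06 in replicates 3 and 4 alone, with 0 genes called in either. Rrs1 followed with -0.20 and Heatr1 with 0.20, both also at an adjusted p of 1. In these 3 genes the Treg levels of the genotypes overlapped, with Polr1a at 201, 228, 192 and 226 CPM in WT Treg and at 200, 228, 219 and 219 CPM in Aim2-/- Treg.

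The spread between replicates was uneven among the 39 genes, and the 3 widest in WT Tn belonged to genes that contain small nucleolar RNA (snoRNA) genes, whose products guide the snoRNPs. GENCODE M21 places snoRNA genes inside 7 of the 39: Nop56, Nop58, Dkc1, Ncl, Wdr43, Ppan and Gnl3. In WT Tn the coefficient of variation of these 7 had a median of 18.1%, from 6.44% to 44.3%, and that of the other 32 genes a median of 9.49%, from 1.94% to 18.1%. Medians were 7.68% and 6.21% in Aim2-/- Tn, 5.44% and 4.39% in WT Treg and 6.28% and 6.01% in Aim2-/- Treg, so the gap between the medians was widest in WT Tn. Both this grouping and the 4 genes that follow were chosen after the values were seen. Gnl3, which encodes nucleostemin, was at 117, 122, 49.4 and 57.6 CPM in WT Tn replicates 1 to 4. Nop58 was at 156, 155, 93.1 and 94.9 CPM, Ncl at 1006, 1070, 724 and 714 CPM, and Wdr43 at 166, 176, 127 and 123 CPM. In each of the 4, replicates 1 and 2 lay above replicates 3 and 4, the same division that these libraries showed over all genes and in Ccr7 and S1pr1. Of the 7, Nop56 also divided this way (364, 391, 261 and 335 CPM). Dkc1 divided the other way (64.9, 56.9, 79.4 and 72.3 CPM) and Ppan did not divide (87.6, 92.9, 80.7 and 92.5 CPM). The division was not particular to genes holding snoRNA genes. Utp15 had it (62.1, 63.1, 46.5 and 48.7 CPM), and Bop1 had the reverse (63.8, 64.8, 82.3 and 80.8 CPM). The values of the 4 genes lay closer together in Aim2-/- Tn, with Nop58 at 129, 128, 119 and 127 CPM and Wdr43 at 148, 141, 146 and 144 CPM. The whole of the 39 genes made up 0.589% and 0.598% of the counts in WT Tn replicates 1 and 2 and 0.518% in each of replicates 3 and 4. The labels name no batch for these libraries, and the part of one was not tested. Culture raised the 7 genes by a median of 1.2 and the other 32 by 1.38 on the log2 scale.

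**Figure D5:**
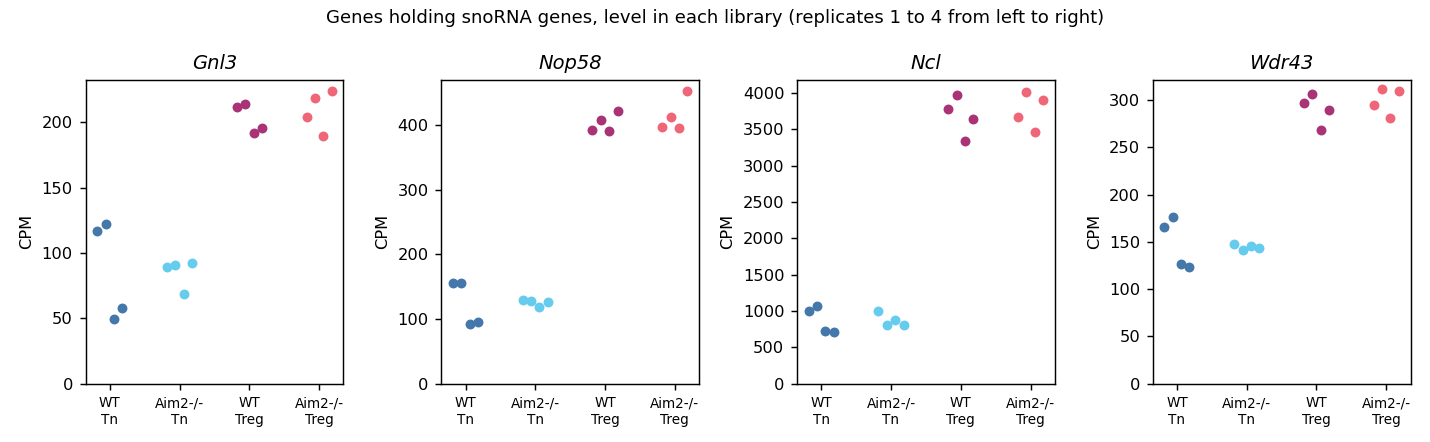
Level in CPM (linear axis from 0) of Gnl3, Nop58, Ncl and Wdr43 in each of the 16 libraries, replicates 1 to 4 from left to right in each group. In WT Tn the first 2 points lie above the last 2 in all 4 genes, and relative to their level the points of the other groups lie closer together.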

How the data were processed

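RNA of 16 libraries was analysed, 4 in each group, grouped and numbered by their labels. Per the labels, stranded mRNA libraries were made from total RNA, and the submitters' processing notes name STAR, RSEM, limma and the build GRCm38. For each library the authors deposited the expected counts of all genes, not normalised. Versions of STAR, RSEM and limma and the strand setting are not given in the sources used here. For its counts the study names a GENCODE release other than M21, which is used here for positions and exon lengths. The expected counts, estimated where reads fit several genes, were rounded. A gene needed 10 counts or more in 4 or more libraries of a fit and was tested with the quasi-likelihood test of edgeR 4.0.16 (R 4.3.3, robust, TMM), two-sided, on the 8 libraries compared or on all 16 for the interaction, with Benjamini-Hochberg adjustment over all genes tested and a threshold of 0.05. The steps were run on simulated data. The changes planted there were larger than the genotype differences of the genes described from all replicates, so differences of that size were not covered.

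Alternatives were DESeq2 1.42.0, limma-voom (limma 3.58.1), other scalings and filters, all libraries in 1 fit, a replicate block, a GC and length correction, replicates 1 and 2 or 3 and 4 alone and leaving out each library. Gene positions and exon lengths come from GENCODE M21. The exon length of a gene joins all its annotated exons, so ranks per kilobase depend in part on the annotation. The genes and lists were chosen with earlier results of these data known. Genes given library by library were, in each role group, the one with the highest level per exon length, the 3 with the largest and the 3 with the smallest culture change in WT, and those with the smallest p for genotype (4 in Tn, 4 in Treg) and interaction (3). Libraries are not tied to single mice, so p-values measure the spread between these samples, which may be technical. Floors cover counting error only. No libraries of a group were alike within sampling noise, with chi-square per gene of 10.3 to 94.2, the highest between WT Tn replicates 1 and 2 and replicates 3 and 4.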

Additional observations from a re-analysis of the deposited data

Results flagged for a closer look

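Values in each group of 4 libraries were screened for a library whose gap to its nearest neighbour took most of the group's range by Dixon's test at 95%. Of 80 groups tested, covering 19 genes and the mean of all 39, 3 were picked out, and chance alone picks out about 1 in 20. Nhp2 in WT Treg replicate 3 was at 146 CPM, and the other 3 libraries lay at 167 to 170 CPM. Gar1 in WT Treg replicate 4 was at 90.9 CPM, against 79.7 to 81.5 CPM in the others. Gnl3 in Aim2-/- Tn replicate 3 was at 68.6 CPM, against 89.2 to 92.3 CPM.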

How the results depend on the processing

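All 39 genes were called higher with culture in both genotypes under all 21 alternatives run for each, leaving out any library included, and 0 were called for genotype under the 21 run there or for the interaction under the 28 run. The median change with culture in WT, 1.38 on the log2 scale, was 1.26 with upper quartile factors, 1.43 with no filter on low counts, 1.22 with a GC and length correction and 1.32 in replicates 3 and 4 alone. In Aim2-/- cells, 1.46 became 1.29 with upper quartile factors and 1.29 with the GC and length correction. Upper quartile factors moved the median of all genes tested from -0.05 to -0.17 in WT and from -0.04 to -0.20 in Aim2-/- cells, which shifts the 39 genes alike, and the split of higher and lower calls from 5154 and 5362 to 4714 and 5869 in WT and from 5363 and 5515 to 4775 and 6206 in Aim2-/- cells. The genotype median in Tn, 0.02, was -0.02 with the GC and length correction, and the interaction median, 0.05, was -0.02 in replicates 1 and 2 alone. Nhp2 in Treg, 0.10, was -0.0026 in replicates 1 and 2 alone. The causes were not tested.

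Leaving out 1 library at a time gave medians of 1.35 to 1.44 with culture in WT, 1.37 to 1.53 in Aim2-/- cells, -0.02 to 0.03 for genotype in Tn, 0.02 to 0.07 in Treg and 0.03 to 0.08 for the interaction. Same-numbered libraries did not all deviate together (correlations of -0.03 to 0.68), and a number is not tied to a mouse. For genotype in Treg, the correlations were 0.68, 0.5, 0.04 and 0.62 for replicates 1 to 4. The highest with another number were 0.49, 0.24, 0.13 and 0.62. Numbers are those of the sample titles, and the names of the deposited tables number some libraries differently, with no number shared between Tn and Treg of a genotype, so the block and the splits by number rest on the titles. With the replicate block, 39 of 39 were called with culture and 0 for genotype, and all calls for genotype in Treg went from 29 to 41. An unadjusted p under 0.05 in edgeR's test for genotype in Treg was then reached by 2 of the 39 and by 1104 of all 13221 genes. With the block and the GC and length correction it was reached by 5 of the 39 and by 970 of 13096. The block with the GC and length correction gave medians of 1.21 in WT, 1.29 in Aim2-/- cells and -0.01 for genotype in Tn.

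Calls over all genes for genotype in Tn, 31 in edgeR, were 128 in DESeq2, 47 with no filter, 50 in 1 fit of all libraries, 18 with at least 10 counts in every library, 15 in replicates 1 and 2, 516 in replicates 3 and 4 and 17 to 28 without a library. In Treg, 29 became 52, 37, 38, 17, 15, 4 and 10 to 17, and for the interaction 3 became 0 to 10. The widest interval for genotype in Treg reached 0.38 on the log2 scale, for Ebna1bp2.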

Other observations

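For 9 of the genes the 250 bases before a RefSeq start reach into an exon of a protein-coding gene on the opposite strand, a head-to-head pair, which was looked at after the values were seen. The neighbour was called lower with culture in WT by edgeR's quasi-likelihood test (Benjamini-Hochberg adjustment) in 5 of the 8 pairs measured, where 39.2% of all genes tested were called lower. Yipf3, beside Polr1c, changed by -0.88 (adjusted p = 1.2e-06), Higd2a, beside Nop16, by -0.73 (adjusted p = 1.1e-05), Grk4, beside Nop14, by -0.93 (adjusted p = 0.012), Ankra2, beside Utp15, by -0.36 (adjusted p = 0.027) and Mbtd1, beside Utp18, by -0.36 (adjusted p = 0.0044). The nucleolar gene of each of these pairs rose, Nop16 by 2.49. In 2 pairs both genes rose: Ddx51, a helicase of large subunit assembly, by 0.50 beside Noc4l at 2.63, and Pbrm1, a chromatin remodelling subunit, by 0.60 beside Gnl3 at 1.2. Carf, beside Wdr12, changed by -0.17 (adjusted p = 0.46), and Cfap57, beside Ebna1bp2, had too few counts to be tested. In Aim2-/- cells the same directions were seen for the 8 measured neighbours, with Mbtd1 at -0.22 (adjusted p = 0.12) and Carf at -0.40 (adjusted p = 0.11) not called.

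Cytosolic ribosomal protein genes leaned to 1 side between genotypes, with 78 of 78 estimates above 0 in Aim2-/- Tn (median 0.16 on the log2 scale) and 78 of 78 in Aim2-/- Treg (median 0.06). None was called in either state by edgeR's test after adjustment, 5 in Tn and 4 in Treg had an unadjusted p under 0.05, against 10.3% and 2.31% of all genes tested, and these genes vary together between libraries. Libraries of Aim2-/- lay entirely above those of WT for 2 of the 78 in Tn and for 23 in Treg, where groups did not overlap for 6.95% and 2.26% of all genes tested. The 39 biogenesis genes showed no such lean in Tn, with 20 of 39 above 0. Of the 100 other pathway genes, 70 were above 0 in Tn, with a median of 0.05, where 52.7% of all genes tested were above 0.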
